A study of Homo sapiens with 24 samples.

Results

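The 54 genes described here are known for their roles in neurons and neuroendocrine cells, and were followed in human myeloma cells treated with the histone deacetylase inhibitor panobinostat, the RNA polymerase I inhibitor CX-5461, or both. They were selected on their symbols, as proteins of synaptic vesicles, of the neuronal cytoskeleton, of secretory granules and of the neuronal surface. The choice was made with the values of panobinostat against vehicle known, so that contrast is described and not tested. All 54 symbols matched a gene identifier, of 28395 identifiers in each count table, and no filter on expression was applied.

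Gene expression was read by 3′ RNA sequencing, which counts fragments near the polyadenylated end of a transcript, in MM1.S and JJN3. Both are established lines of multiple myeloma, a cancer of plasma cells. MM1.S is labelled p53 wild type and JJN3 is labelled p53 null, and each is 1 line, so p53 status and every other difference between the lines cannot be told apart. The 4 groups of each line were CX+Pano (CX-5461 at 500 nM with panobinostat at 50 nM), Pano (panobinostat at 50 nM), CX (CX-5461 at 500 nM) and Vehicle, all for 24 h, with 3 libraries in each of the 8 groups. Whether the 3 libraries of a group came from separate cultures is not stated, and the spread behind each p-value may therefore be technical.

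Neurons release transmitter when calcium triggers the fusion of synaptic vesicles, a step carried out by SNARE proteins and timed by synaptotagmins. Long axons and dendrites depend on tubulins, microtubule-associated proteins, neurofilaments and kinesin motors, and neuroendocrine cells store peptides in granules built on granins. Outside the nervous system many of these genes are kept silent by the repressor REST, which binds the RE1 element and brings in the corepressors RCOR1 and SIN3A, histone deacetylases and the demethylase KDM1A. Panobinostat inhibits histone deacetylases of several classes, and CX-5461 blocks transcription of the ribosomal RNA genes.

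Total counts per library ranged from 4751893 to 7305069, so that a count of 0 in a library still allows up to 0.67 CPM (the share of a gene in the counts of its library, scaled by TMM, the trimmed mean of M-values, within each line), taking 3 counts as the limit for counting error alone. Plasma cell markers were expressed in the Vehicle libraries of both lines, SDC1 at 1172 ± 25.8 CPM in MM1.S and 106.7 ± 7.95 CPM in JJN3 (SD, n = 3), with CD27 at 0 counts in both. The markers were not all high: CD38 stood at 5.361 ± 1.1 CPM in MM1.S and 0.06735 ± 0.117 CPM in JJN3, and SLAMF7 at 1186 ± 81.9 CPM in MM1.S and 4.382 ± 0.518 CPM in JJN3 (SD, n = 3). The library of each line holds all its cells, so a change in the number of cells that express a gene and a change in RNA per cell cannot be told apart. In JJN3 the libraries that share a replicate number deviated together from their group means, and replicate 2 had the lowest level in the CX+Pano group for 16, and in the Pano group for 18, of the 24 members called there.

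Not every member was measurable. In MM1.S 14 of the 54 members, and in JJN3 21, had at most 3 counts summed over the libraries of every group. For 13 of them this held in both lines: SNAP25 (the SNARE partner of syntaxin), CPLX2 (a complexin, which clamps the fusion machinery), MAPT (tau), the neurofilament genes NEFM and NEFH, GAP43 (a growth cone protein), the granule genes CHGA, CHGB, SCG3 and SCG5, ELAVL4 (a neuronal RNA-binding protein), HPCA (hippocalcin) and SNCG (gamma-synuclein). NEFM, CHGA, ELAVL4 and SNCG had 0 counts in all 24 libraries. The counts of these genes stayed at or near 0 with panobinostat as with vehicle. EHMT2, a gene of the REST corepressor list counted further on, also had 0 counts in all 24 libraries. The other 25 genes of that list had counts in every group. Whether a 0 here comes from the annotation or the counting, and not from the cells, was not tested.

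The promoter sequences show how differently the members are built. RefSeq windows on GRCh38.p14, running from 250 bases before to 50 after the start site, were held for 40 of the 54 members. Apart from that of UCHL1, the stretches printed here hold the cyclic AMP response element (CRE) TGACGTCA, and the stretch of SYN1 also holds the RE1 motif parts CAGCACC and GGACAG with 2 bases between them. They are shown because SYN1, VGF, KIF5C, KIF1A and DLG4 rose in the test below while CHGA, with the same element, had 0 counts throughout; UCHL1 is shown because it fell. All are written 5′ to 3′ on the strand of the gene, in lower case with the CRE, RE1 and TATAAA matches in capitals and all other motifs left in lower case, where TTTATA is TATAAA read on the other strand.
SYN1, chrX:47619973-47620107, minus strand: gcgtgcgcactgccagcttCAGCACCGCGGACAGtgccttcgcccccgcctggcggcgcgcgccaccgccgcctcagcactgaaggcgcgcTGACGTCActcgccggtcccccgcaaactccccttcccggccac
VGF, chr7:101165570-101165684, minus strand: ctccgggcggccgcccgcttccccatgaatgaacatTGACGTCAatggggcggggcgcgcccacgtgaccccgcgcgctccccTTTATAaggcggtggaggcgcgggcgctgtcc
KIF5C, chr2:148875128-148875207, plus strand: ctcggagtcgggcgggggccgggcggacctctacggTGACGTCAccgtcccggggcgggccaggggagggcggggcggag
KIF1A, chr2:240820373-240820452, minus strand: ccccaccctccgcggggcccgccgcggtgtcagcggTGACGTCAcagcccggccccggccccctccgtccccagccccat
DLG4, chr17:7205248-7205327, minus strand: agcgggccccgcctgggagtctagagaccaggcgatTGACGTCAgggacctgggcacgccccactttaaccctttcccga
CHGA, chr14:92923060-92923139, plus strand: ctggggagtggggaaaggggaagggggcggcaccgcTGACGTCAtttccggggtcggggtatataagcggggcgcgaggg
UCHL1, chr4:41256863-41256927, plus strand: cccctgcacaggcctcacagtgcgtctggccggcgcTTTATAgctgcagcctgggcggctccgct
SYN1 encodes a synapsin that tethers synaptic vesicles, VGF a neurosecretory precursor, KIF5C a kinesin-1 heavy chain, KIF1A a kinesin that carries vesicle precursors, DLG4 the postsynaptic scaffold PSD-95, and CHGA chromogranin A. The CRE was found on either strand in 7 of the 40 member windows (17.5%), those of SYN1, KIF1A, KIF5C, CHGA, VGF, DLG4 and TMEM59L, and in 2.25% of all 27305 genes with a window. RE1 in this spelling was found in SYN1 alone (2.5% of members) and in 0.0586% of genes. GC boxes (GGGCGG) were found in 80% of members and 48.3% of genes, CCAAT in 35% and 39.7%, and TATAAA in 7.5% and 14%. GC content had a median of 68.0% in member windows, against 58.33% over all genes, and CpG sites a median of 25 against 14. The motifs were picked with expression values known, and a match is a description of letters, not a bound site.

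**Figure D1:**
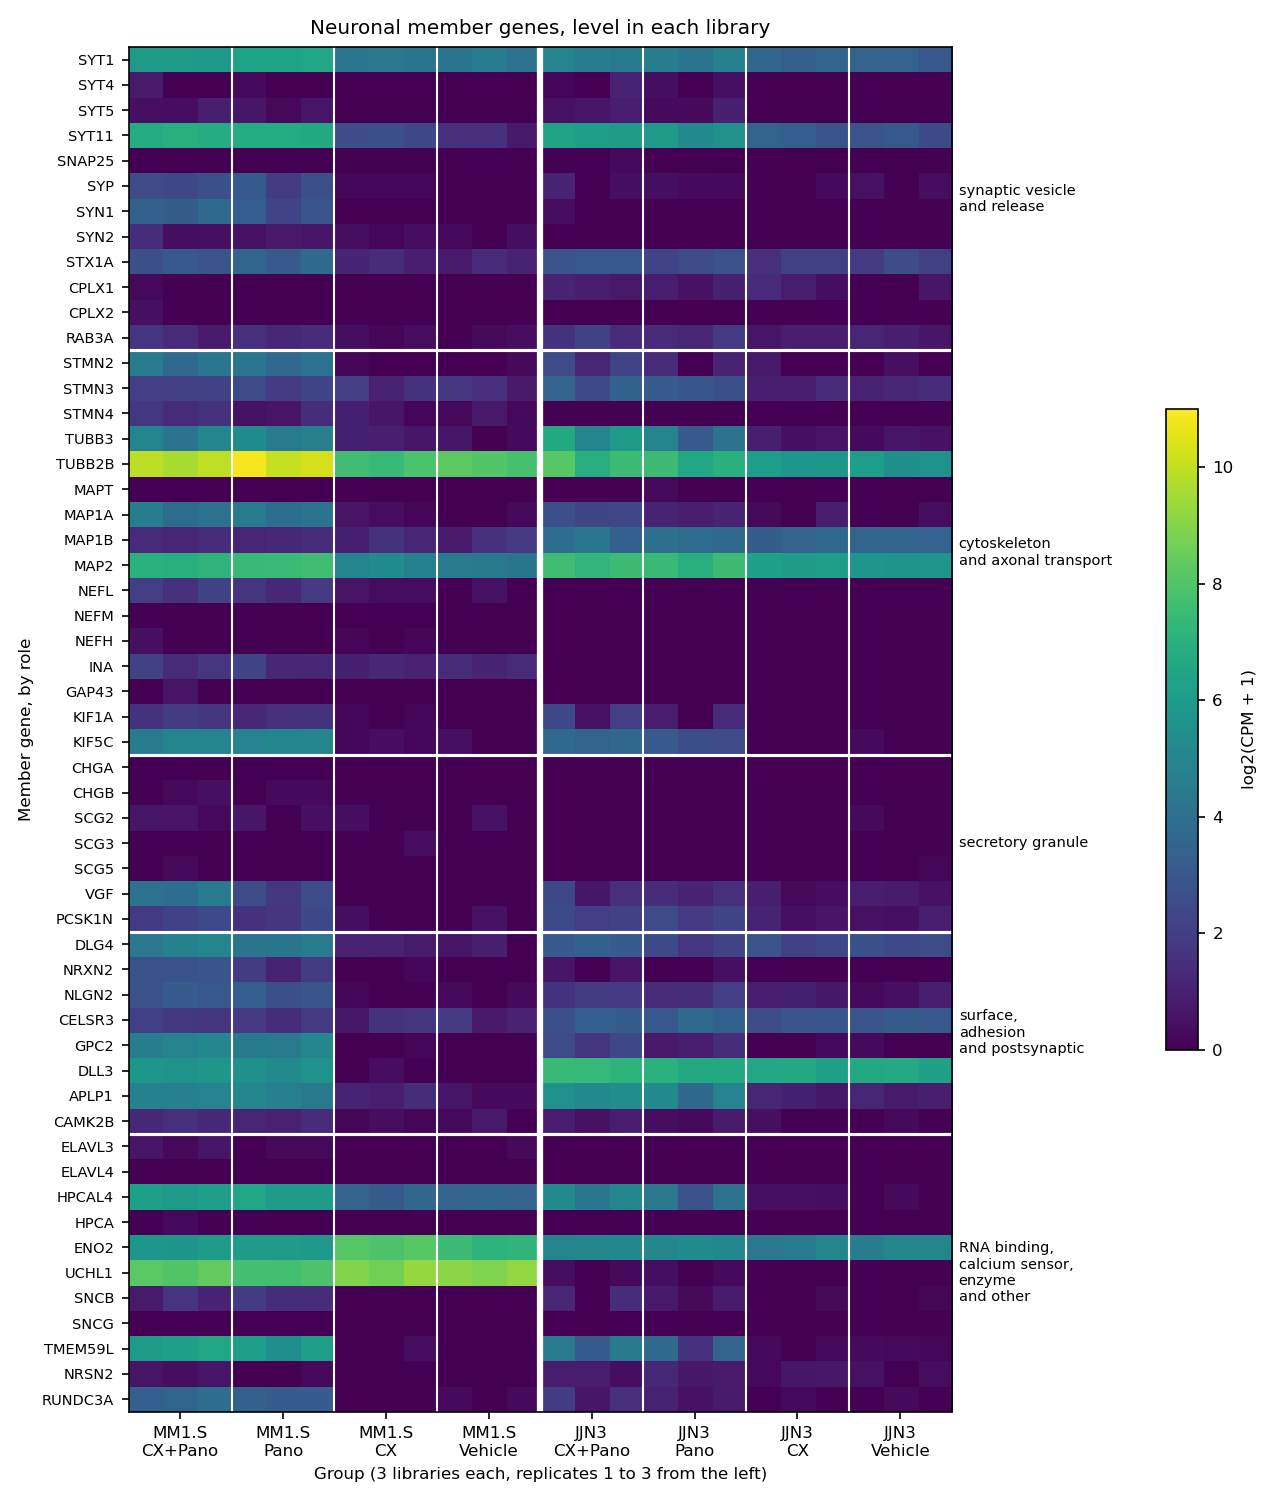
Level of each of the 54 members (rows, by role) in each of the 24 libraries (columns, by line and group), as log2 of CPM plus 1. Many rows are bright in the CX+Pano and Pano columns and dark in the CX and Vehicle columns, while ENO2 and UCHL1 in MM1.S run the other way and 13 rows are dark throughout.

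Summed over the members, expression was higher wherever panobinostat was present. In MM1.S the sum was 2037, 1812 and 2204 CPM with CX+Pano, 2921, 2019 and 2369 CPM with Pano, 1026, 913 and 1201 CPM with CX and 1081, 936 and 1023 CPM with Vehicle. In JJN3 it was 1100.0, 725 and 869.9 CPM with CX+Pano, 771, 491 and 658 CPM with Pano, 312, 290.1 and 284 CPM with CX and 296, 283 and 255 CPM with Vehicle. In each line all 6 libraries with panobinostat lay above all 6 without it. Between Pano and Vehicle this separation is no result, since the members were chosen with those values known. A few genes carry these sums. Without TUBB2B alone the MM1.S means were 1113 CPM with CX+Pano, 1059 CPM with Pano, 845.1 CPM with CX and 750.6 CPM with Vehicle. Without TUBB2B, UCHL1 and ENO2, which also takes out the 2 members that fell, they were 763.5 ± 47.4 CPM with CX+Pano, 778.2 ± 60.7 CPM with Pano, 79.24 ± 5.33 CPM with CX and 61.41 ± 6.26 CPM with Vehicle (SD, n = 3). Without MAP2, DLL3 and TUBB2B those of JJN3 were 369.8 ± 74.8 CPM with CX+Pano, 234.1 ± 52.9 CPM with Pano, 75.03 ± 7.57 CPM with CX and 76.95 ± 5.84 CPM with Vehicle (SD, n = 3).

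**Figure D2:**
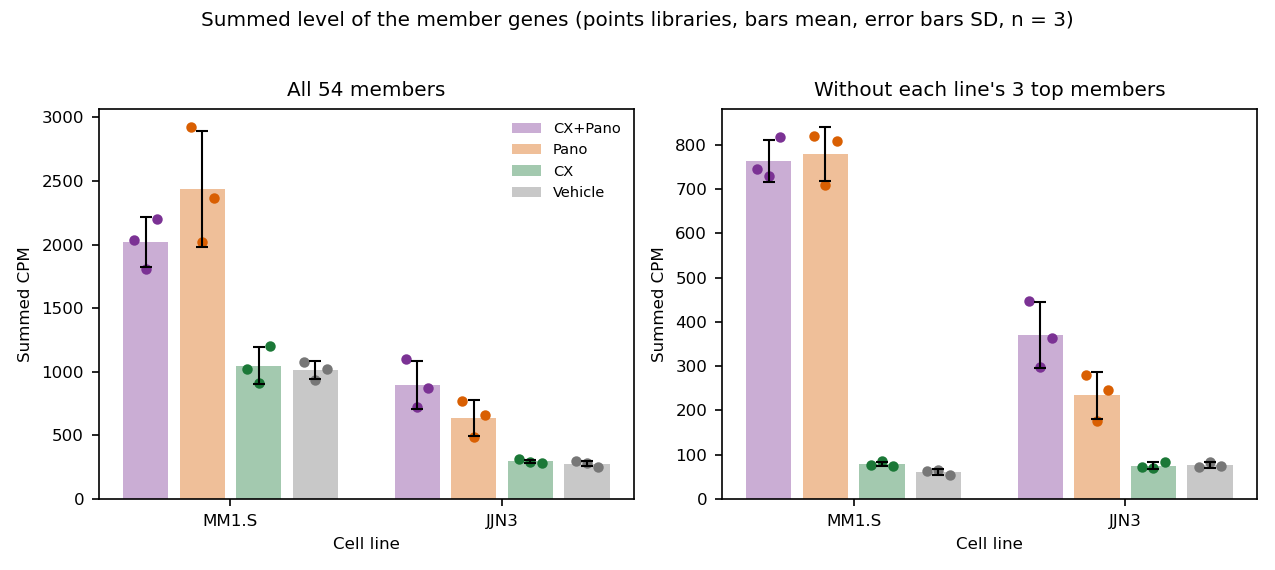
Summed CPM of the 54 members by line and group (left) and without the 3 members of highest mean CPM in each line (right). Points are libraries, bars means and error bars SD (n = 3). The bars of CX+Pano and Pano stand above those of CX and Vehicle in both lines and both panels. The members were chosen with the Pano and Vehicle values known.

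The contrast that chose the members, Pano against Vehicle, is given as values alone. All 3 Pano libraries lay above all 3 Vehicle libraries for 30 of the 54 members in MM1.S and below them for 2; over all genes with a count the shares were 27.1% above and 22.9% below. In JJN3 23 members lay above and 0 below, against 15.6% and 12.1% of all genes. Nothing is read from these counts, since the choice of members used them. For SYT11, a vesicle synaptotagmin, MM1.S libraries held 107, 107 and 101 CPM with Pano and 1.79, 1.79 and 0.675 CPM with Vehicle, and JJN3 libraries 60.6, 37.6 and 46.98 CPM with Pano and 6.06, 7.12 and 4.56 CPM with Vehicle. DLL3, an inhibitory Notch ligand of neuroendocrine cells, started from different levels in the lines. MM1.S had 44.8, 37.1 and 47.5 CPM with Pano and 0 counts in every Vehicle library, while JJN3 had 128, 101 and 103 CPM with Pano and 102, 105 and 78.6 CPM with Vehicle, with overlapping groups. MAP2, which binds dendritic microtubules, was at 170.5, 179 and 198 CPM with Pano and 22.01, 20.8 and 18.2 CPM with Vehicle in MM1.S, and at 177, 121 and 185 CPM with Pano and 53.3, 50.6 and 52.3 CPM with Vehicle in JJN3.

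SYT1 was at 81.9, 81.2 and 87.1 CPM with Pano and 18.1, 22.3 and 16.9 CPM with Vehicle in MM1.S, and at 23.3, 17.9 and 27.2 CPM with Pano and 10.3, 10.04 and 7.14 CPM with Vehicle in JJN3. TUBB2B was at 1829, 1043 and 1259 CPM with Pano and 297, 268 and 224 CPM with Vehicle in MM1.S, and at 185, 92.9 and 124 CPM with Pano and 68.9, 44.01 and 49.3 CPM with Vehicle in JJN3. Both are expressed in MM1.S with vehicle already. VGF was at 4.77, 2.39 and 4.95 CPM with Pano and 0 counts with Vehicle in MM1.S, and at 1.65, 1.08 and 1.90 CPM with Pano and 0.808, 0.730 and 0.456 CPM with Vehicle in JJN3. PCSK1N was at 1.99, 2.22 and 4.22 CPM with Pano and 0, 0.446 and 0 CPM with Vehicle in MM1.S, and at 4.79, 2.58 and 3.99 CPM with Pano and 0.404, 0.365 and 0.912 CPM with Vehicle in JJN3. These 2 carry the granule group. APLP1 was at 32.8, 25.8 and 21.1 CPM with Pano and 0.537, 0.223 and 0.169 CPM with Vehicle in MM1.S, and at 37.1, 11.8 and 27.96 CPM with Pano and 1.21, 0.730 and 0.912 CPM with Vehicle in JJN3. ENO2 and UCHL1 were the 2 members whose Pano libraries all lay below Vehicle in MM1.S, ENO2 with 65.6, 64.1 and 57.96 CPM and UCHL1 with 208, 203 and 245 CPM with Pano. In JJN3 ENO2 was at 33.02, 38.1 and 33.7 CPM with Pano and 24.05, 31.6 and 30.9 CPM with Vehicle, and UCHL1 at 0.330, 0 and 0.190 CPM with Pano and 0 counts with Vehicle.

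Whether panobinostat moved the members in cells that also received CX-5461 was asked by setting CX+Pano against CX. This contrast shares no library with the one used for the choice, but it shares the drug and the lines. In JJN3 same-numbered CX+Pano and Pano libraries also deviated together from their group means, with correlations of 0.388 to 0.466. Members and lists were chosen with earlier results of these data known, so the shares below are not independent of the choice. Whether the effect equals that of panobinostat without CX-5461 was not tested. In MM1.S 32 of the 54 members rose and 2 fell (59.3% and 3.7%), where 24.8% of all genes tested rose and 22.4% fell (edgeR quasi-likelihood test, adjusted p under 0.05). In JJN3 24 members rose and 0 fell (44.4%), where 12.8% of all genes rose and 10.2% fell. Many members were at or near 0 with CX and could rise but hardly fall. In MM1.S 14 had at most 3 counts in both groups, a further 8 had 0 counts with CX, and 10 had 1 to 3. In JJN3 these were 21, 5 and 6. All genes were not matched to the members on level, so nothing is read from the low shares of members that fell. Of the 54, 48 had a count in MM1.S and 39 in JJN3 and could be tested. Here and below, shares of members and of lists are over all genes listed, tested or not. Shares of all genes are over genes tested, so the 2 bases differ. In all 23 members rose in both lines, 9 rose in MM1.S alone among the calls (4 of these, STMN4, NEFL, INA and ELAVL3, had 0 counts in every JJN3 library), and STMN3 was called in JJN3 alone. Being called in one line only is not a tested difference; the tests of that difference follow further on.

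**Figure D3:**
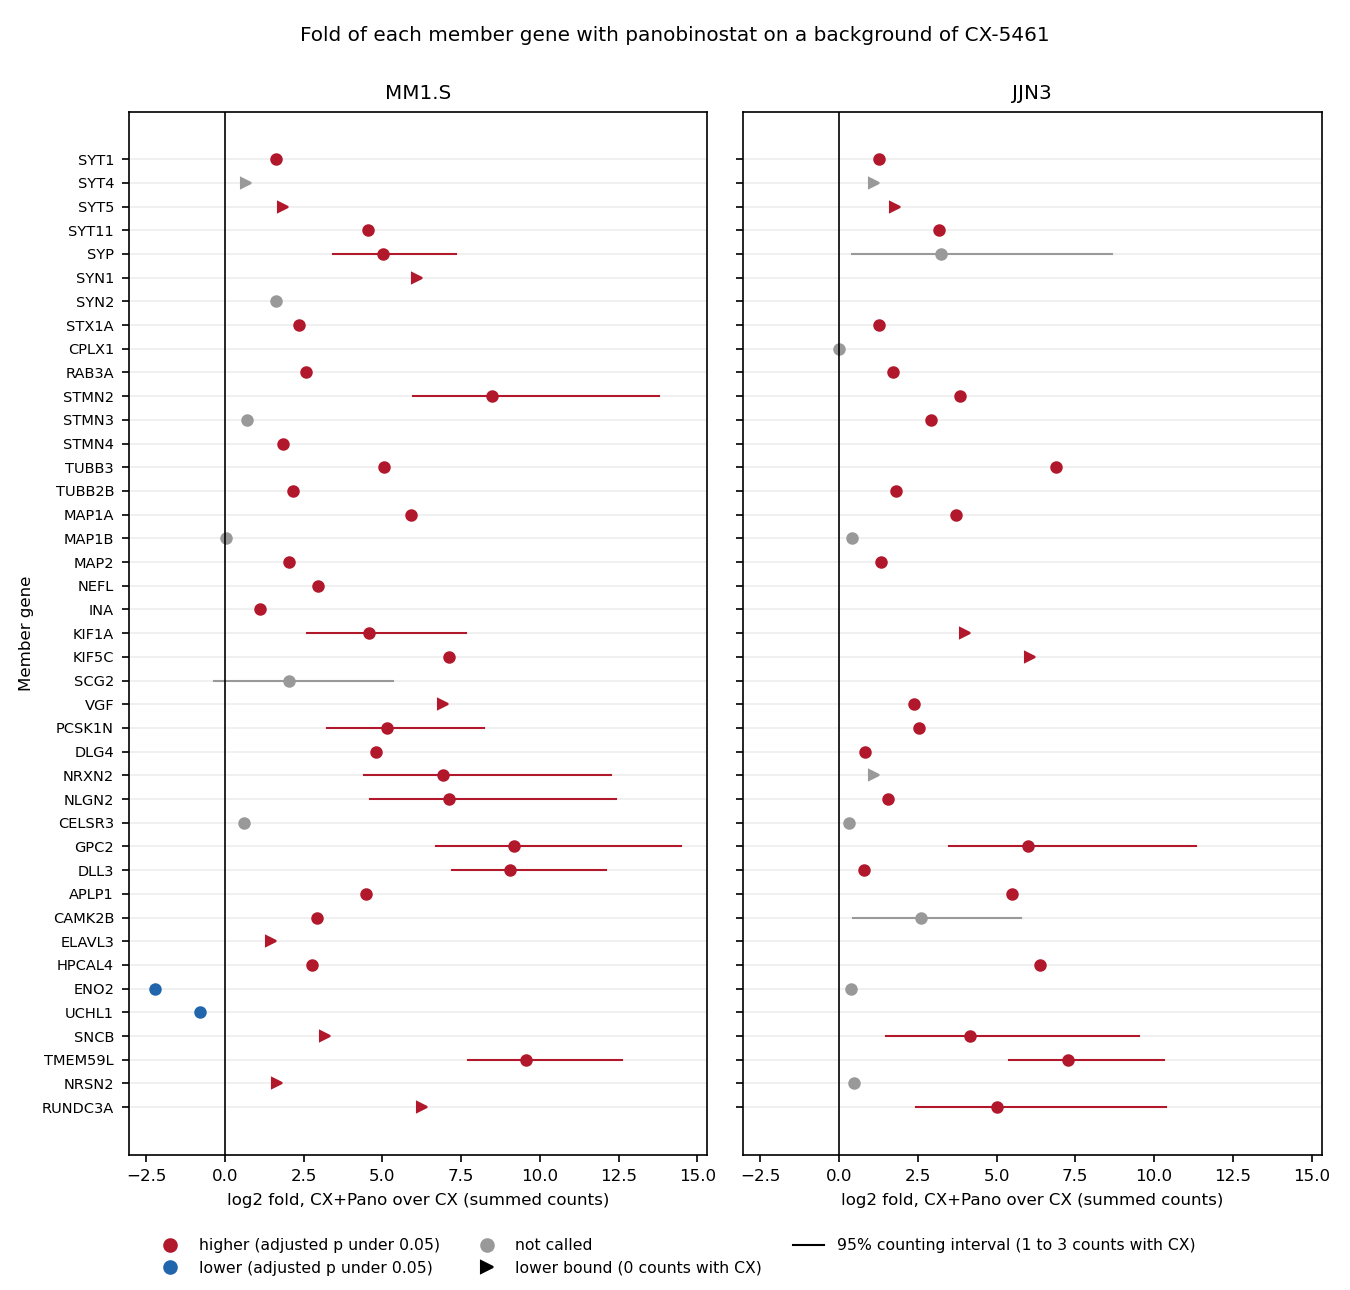
Log2 fold of each member, CX+Pano over CX, from summed counts in MM1.S (left) and JJN3 (right), with colour for the edgeR call, triangles for lower bounds where CX had 0 counts and bars for counting intervals where it had 1 to 3. All called members lie right of 0 except ENO2 and UCHL1 in MM1.S.

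Among the 12 genes of the synaptic vesicle and its release, 7 rose in MM1.S (58.3%) and 5 in JJN3 (41.7%), and 0 fell. Of all genes 24.8% rose in MM1.S and 12.8% in JJN3, the shares to set beside those of each group below. SYT1, the calcium sensor of fast transmitter release, was at 58.7, 60.2 and 57.3 CPM with CX+Pano and 18.98, 19.7 and 18.3 CPM with CX in MM1.S (log2 fold change 1.63 ± 0.13, adjusted p = 1.97e-17). In JJN3 it was at 28.8, 23.5 and 20.8 CPM with CX+Pano and 11.2, 8.98 and 10.9 CPM with CX (log2 fold change 1.23 ± 0.21, adjusted p = 1.86e-05). The groups did not overlap in either line. SYT11 stood at 108, 121 and 111 CPM with CX+Pano and 5.06, 5.52 and 4.27 CPM with CX in MM1.S (log2 fold change 4.51 ± 0.16, adjusted p = 3.89e-36), and at 83.8, 69.5 and 66.99 CPM with CX+Pano and 10.2, 8.79 and 6.20 CPM with CX in JJN3 (log2 fold change 3.14 ± 0.20, adjusted p = 4.06e-14). Every CX+Pano library again lay above every CX library.

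Syntaxin 1A and the vesicle proteins synaptophysin and synapsin I followed. STX1A, the SNARE protein of the plasma membrane, was at 5.41, 7.12 and 6.13 CPM with CX+Pano and 1.11, 1.74 and 0.853 CPM with CX in MM1.S (log2 fold change 2.32 ± 0.34, adjusted p = 2.54e-08). Its JJN3 libraries held 6.07, 7.05 and 7.17 CPM with CX+Pano and 1.75, 3.25 and 3.26 CPM with CX (log2 fold change 1.28 ± 0.32, adjusted p = 0.00245). SYN1 was at 9.51, 8.57 and 12.4 CPM with CX+Pano in MM1.S and at 0 counts in all CX and Vehicle libraries, that is, at least 68.3-fold higher, adjusted p = 2.51e-15. In JJN3 it had counts in 1 of the 12 libraries. SYP, a membrane protein of the vesicle, was at 4.85, 4.21 and 5.41 CPM with CX+Pano and 0.158, 0.145 and 0.142 CPM with CX in MM1.S (ratio 32.4, 95% counting interval 10.7 to 160.2, adjusted p = 2.14e-11). In JJN3 its values of 1.10, 0 and 0.333 CPM with CX+Pano and 0, 0 and 0.163 CPM with CX overlapped and were not called.

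RAB3A, a small GTPase of the vesicle, and SYT5, another synaptotagmin, rose at low levels in both lines. In JJN3 RAB3A was at 2.07, 3.33 and 1.67 CPM with CX+Pano and 0.526, 0.764 and 0.815 CPM with CX (log2 fold change 1.68 ± 0.52, adjusted p = 0.0154), and its adjusted p was 0.0651 without CX replicate 1 and 0.0741 without CX+Pano replicate 2. SYT5 was at 0.414, 0.588 and 0.833 CPM with CX+Pano and 0 counts with CX there (at least 3.41-fold higher, adjusted p = 0.0203). Without CX replicate 1, 2 or 3, or CX+Pano replicate 3, its adjusted p was 0.0582, 0.0533, 0.0652 and 0.0708, and with DESeq2 it was 0.0558. Exons on the opposite strand lie over the last 500 bases of RAB3A (MPV17L2) and SYN1 (ARAF) in GENCODE v29, and the strand setting of the counting is not given, so reads of these neighbours cannot be told apart from theirs.

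The 16 cytoskeletal and transport genes are the largest group: 10 rose in MM1.S (62.5%) and 8 in JJN3 (50%), and 0 fell. TUBB3, the beta-tubulin used as a marker of neurons, was at 30.2, 16.98 and 33.2 CPM with CX+Pano and 0.949, 0.871 and 0.569 CPM with CX in MM1.S (log2 fold change 5.03 ± 0.39, adjusted p = 1.46e-10). JJN3 libraries of TUBB3 held 101, 29.97 and 62.7 CPM with CX+Pano and 0.877, 0.382 and 0.489 CPM with CX (log2 fold change 6.75 ± 0.80, adjusted p = 0.000196). Replicate 2 was the lowest of the JJN3 CX+Pano libraries and still lay above every CX library. TUBB2B, a beta-tubulin of the developing brain, was at 949, 775 and 991 CPM with CX+Pano and 194, 175 and 236 CPM with CX in MM1.S (log2 fold change 2.17 ± 0.23, adjusted p = 2.8e-05), and at 286, 118 and 187 CPM with CX+Pano and 68.2, 54.3 and 56.1 CPM with CX in JJN3 (log2 fold change 1.73 ± 0.36, adjusted p = 0.00851). Without replicate 3 of every group the JJN3 adjusted p was 0.151. TUBB2B values are uncertain, because the paralog TUBB2A is nearly identical and the handling of reads that fit both is not given.

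Microtubule-associated proteins rose as well. MAP2 was at 129.6, 123 and 143 CPM with CX+Pano and 29.6, 38.8 and 27.4 CPM with CX in MM1.S (log2 fold change 2.04 ± 0.12, adjusted p = 1.87e-23), and at 197, 151 and 183 CPM with CX+Pano and 78.5, 64.97 and 68.99 CPM with CX in JJN3 (log2 fold change 1.32 ± 0.15, adjusted p = 1.66e-08). MAP1A, found in mature neurons, was at 23.68, 13.9 and 16.2 CPM with CX+Pano and 0.474, 0.290 and 0.142 CPM with CX in MM1.S (log2 fold change 5.81 ± 0.37, adjusted p = 1.97e-22), and at 5.52, 3.92 and 3.999 CPM with CX+Pano and 0.175, 0 and 0.815 CPM with CX in JJN3 (log2 fold change 3.62 ± 0.56, adjusted p = 3.62e-06). Neither gene overlapped between groups in either line. MAP1B, the form of growing axons, was not called: JJN3 held 14.1, 19.00 and 9.498 CPM with CX+Pano and 8.59, 9.94 and 13.05 CPM with CX.

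Stathmins bind free tubulin. STMN2 was at 21.8, 12.6 and 19.1 CPM with CX+Pano and 0.158, 0 and 0 CPM with CX in MM1.S (ratio 356, 95% counting interval 63.5 to 14120.0, adjusted p = 2.78e-22). JJN3 libraries of STMN2 held 4.69, 1.18 and 3.67 CPM with CX+Pano and 0.701, 0 and 0 CPM with CX (log2 fold change 3.71 ± 0.83, adjusted p = 0.00122). Without replicate 3 of every group its JJN3 adjusted p was 0.0739. STMN3 was called in JJN3, with 9.94, 4.31 and 9.66 CPM with CX+Pano and 0.877, 0.764 and 1.63 CPM with CX (log2 fold change 2.85 ± 0.39, adjusted p = 5.79e-07). MM1.S values of STMN3 were 2.98, 3.23 and 3.42 CPM with CX+Pano and 3.005, 1.02 and 1.99 CPM with CX, which overlapped. STMN4 rose in MM1.S, but its adjusted p was 0.0514 without CX replicate 3.

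Of the motors, KIF5C was at 22.9, 29.9 and 29.2 CPM with CX+Pano and 0.158, 0.290 and 0.142 CPM with CX in MM1.S (log2 fold change 6.97 ± 0.35, adjusted p = 7.42e-29). JJN3 libraries held 12.4, 10.4 and 11.8 CPM with CX+Pano and 0 counts with CX (at least 66.3-fold higher, adjusted p = 1.1e-11). KIF1A was at 4.28, 0.392 and 2.999 CPM with CX+Pano and 0 counts with CX in JJN3 (at least 15.8-fold higher, adjusted p = 0.0161), with replicate 2 far below the other CX+Pano libraries. Its adjusted p was 0.0577 without Pano replicate 1 and 0.0812 without CX+Pano replicate 3. INA, a neurofilament subunit, was at 3.36, 1.46 and 2.34 CPM with CX+Pano and 0.949, 1.31 and 0.995 CPM with CX in MM1.S (log2 fold change 1.09 ± 0.45, adjusted p = 0.0385). That call ended without CX replicate 1 (adjusted p = 0.104), CX replicate 3 (0.0969), CX+Pano replicate 1 (0.241) or CX+Pano replicate 3 (0.0682), with DESeq2 (0.0756) and with limma-voom (0.0755). NEFL, the light neurofilament, rose in MM1.S too, while NEFM and NEFH stayed at or near 0.

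Of the 7 granule genes 2 rose (28.6%), the same pair, VGF and PCSK1N, in each line, and 0 fell. Over the 7 genes listed, the MM1.S share is near the 24.8% of all genes tested that rose, and in JJN3 12.8% of all genes tested rose. Only 6 of the 7 were tested in MM1.S and 4 in JJN3. VGF was at 16.8, 14.6 and 23.1 CPM with CX+Pano and at 0 counts with CX in MM1.S (at least 122-fold higher, adjusted p = 6.63e-20). In JJN3 it was at 4.28, 0.588 and 1.83 CPM with CX+Pano and 0.877, 0.191 and 0.326 CPM with CX (log2 fold change 2.31 ± 0.63, adjusted p = 0.00568); the groups overlapped, and without CX+Pano replicate 1 the adjusted p was 0.222. PCSK1N, which encodes proSAAS, an inhibitor of prohormone convertase, was at 2.61, 3.56 and 4.32 CPM with CX+Pano and 0.316, 0 and 0 CPM with CX in MM1.S (ratio 35.5, 95% counting interval 9.41 to 300.1, adjusted p = 1.75e-08), and at 4.56, 2.94 and 3.499 CPM with CX+Pano and 1.05, 0.382 and 0.489 CPM with CX in JJN3 (log2 fold change 2.50 ± 0.48, adjusted p = 0.000132). The granins CHGA, CHGB and SCG3 and the chaperone SCG5 had at most 3 counts in every group, and SCG2 had 7 counts with CX+Pano and 2 with CX in MM1.S.

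Genes of the surface, of adhesion and of the postsynaptic side rose in 7 of 8 cases in MM1.S (87.5%) and 5 of 8 in JJN3 (62.5%), and 0 fell. DLL3 was at 56.3, 48.7 and 53.9 CPM with CX+Pano and 0, 0.290 and 0 CPM with CX in MM1.S (ratio 534, 95% counting interval 147 to 4416, adjusted p = 1.07e-33). In JJN3, where it was already expressed, it was at 170.2, 157 and 136 CPM with CX+Pano and 93.8, 101 and 74.9 CPM with CX (log2 fold change 0.78 ± 0.15, adjusted p = 0.000112). APLP1, a relative of the amyloid precursor protein, was at 27.2, 26.7 and 28.1 CPM with CX+Pano and 1.11, 0.871 and 1.71 CPM with CX in MM1.S (log2 fold change 4.45 ± 0.25, adjusted p = 3.83e-25). Its JJN3 values were 47.9, 36.2 and 40.5 CPM with CX+Pano and 1.23, 0.955 and 0.652 CPM with CX (log2 fold change 5.44 ± 0.42, adjusted p = 3.05e-08). In both lines and for both genes the groups were apart. GPC2, a heparan sulfate proteoglycan of developing neurons, was at 23.5, 28.8 and 33.3 CPM with CX+Pano and 0, 0 and 0.142 CPM with CX in MM1.S (ratio 579, 95% counting interval 103 to 22920.0, adjusted p = 8.02e-24), and at 4.69, 2.15 and 3.999 CPM with CX+Pano and 0, 0 and 0.163 CPM with CX in JJN3 (ratio 64.2, 95% counting interval 11.1 to 2571, adjusted p = 1.11e-06).

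DLG4 was at 19.4, 27.7 and 31.5 CPM with CX+Pano and 1.11, 1.02 and 0.711 CPM with CX in MM1.S (log2 fold change 4.77 ± 0.28, adjusted p = 8.99e-24). In JJN3 it was at 7.32, 9.60 and 7.83 CPM with CX+Pano and 6.14, 3.44 and 4.24 CPM with CX (log2 fold change 0.82 ± 0.28, adjusted p = 0.0267). The JJN3 call ended without CX replicate 2 (adjusted p = 0.132), CX replicate 3 (0.0968), CX+Pano replicate 2 (0.0928) or CX+Pano replicate 3 (0.0522). Without CX-5461, DLG4 in JJN3 was not higher with panobinostat. Its means were 3.542 CPM with Pano and 4.85 CPM with Vehicle, and the libraries overlapped. NLGN2, the neuroligin of inhibitory synapses, was at 5.59, 7.92 and 6.85 CPM with CX+Pano and 0.158, 0 and 0 CPM with CX in MM1.S (ratio 138, 95% counting interval 24.4 to 5518, adjusted p = 8.78e-16), and at 2.07, 2.74 and 2.50 CPM with CX+Pano and 0.877, 0.955 and 0.652 CPM with CX in JJN3 (log2 fold change 1.53 ± 0.50, adjusted p = 0.0212). In JJN3 its adjusted p was 0.0506 without CX replicate 1, 0.0901 without CX replicate 3, 0.0503 without CX+Pano replicate 2 and 0.0551 without CX+Pano replicate 3. NRXN2, a presynaptic neurexin that binds neuroligins, was at 5.78, 5.82 and 6.49 CPM with CX+Pano and 0, 0 and 0.142 CPM with CX in MM1.S (ratio 122, 95% counting interval 21.4 to 4863, adjusted p = 6.82e-14). The kinase subunit CAMK2B rose in MM1.S, and CELSR3, a cadherin of axon guidance, was called in neither line.

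The last group of 11 is made of RNA-binding proteins, calcium sensors, enzymes and others. Of these 6 rose and 2 fell in MM1.S (54.5% and 18.2%), and 4 rose and 0 fell in JJN3 (36.4%). Of all genes 22.4% fell in MM1.S. TMEM59L, a membrane protein, was at 61.9, 71.97 and 91.2 CPM with CX+Pano and 0, 0 and 0.284 CPM with CX in MM1.S (ratio 759.6, 95% counting interval 209.8 to 6279, adjusted p = 1.04e-14). In JJN3 it was at 22.6, 8.03 and 20.7 CPM with CX+Pano and 0.175, 0 and 0.163 CPM with CX (ratio 153, 95% counting interval 42.02 to 1269, adjusted p = 2.32e-07). HPCAL4, a calcium sensor of the hippocalcin family, was at 74.6, 61.1 and 67.9 CPM with CX+Pano and 10.3, 7.70 and 11.5 CPM with CX in MM1.S (log2 fold change 2.78 ± 0.15, adjusted p = 3.26e-25), and at 35.8, 19.2 and 30.8 CPM with CX+Pano and 0.351, 0.382 and 0.326 CPM with CX in JJN3 (log2 fold change 6.27 ± 0.53, adjusted p = 1.69e-08). None of these groups overlapped.

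RUNDC3A was at 8.76, 10.8 and 14.4 CPM with CX+Pano and 0 counts with CX in MM1.S (at least 76.6-fold higher, adjusted p = 1.46e-20), and at 2.90, 0.588 and 1.83 CPM with CX+Pano and 0, 0.191 and 0 CPM with CX in JJN3 (ratio 32.6, 95% counting interval 5.47 to 1322, adjusted p = 0.000339). SNCB, beta-synuclein, was at 1.24, 0 and 1.67 CPM with CX+Pano and 0, 0 and 0.163 CPM with CX in JJN3 (ratio 17.7, 95% counting interval 2.81 to 734, adjusted p = 0.0121), where the groups overlapped. Its adjusted p was 0.0529 without CX replicate 1, 0.057 without CX+Pano replicate 1, 0.0867 without CX+Pano replicate 3, 0.0568 with DESeq2 and 0.0552 with limma-voom. For RUNDC3A in JJN3 it was 0.0656 without replicate 1 of every group. ELAVL3, an RNA-binding protein of neurons, rose in MM1.S with 7 counts with CX+Pano and 0 with CX, and its adjusted p was 0.0526 without CX+Pano replicate 1 and 0.0709 with DESeq2.

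ENO2 and UCHL1 went against the rest in MM1.S. ENO2, the neuron-specific enolase of glycolysis, was at 53.1, 51.3 and 66.7 CPM with CX+Pano and 269.8, 246 and 278 CPM with CX (log2 fold change -2.21 ± 0.12, adjusted p = 4.59e-26). UCHL1, a ubiquitin hydrolase abundant in neurons, was at 289.6, 258 and 329 CPM with CX+Pano and 484, 407 and 613 CPM with CX (log2 fold change -0.78 ± 0.13, adjusted p = 1.05e-05). Both genes were already expressed in MM1.S with Vehicle, ENO2 at 186, 138 and 147 CPM and UCHL1 at 536, 464 and 597 CPM, and every CX+Pano library lay below every CX library. In JJN3 ENO2 was at 30.5, 32.5 and 33.99 CPM with CX+Pano and 19.5, 22.5 and 31.5 CPM with CX, which overlapped and were not called, although with the replicate number as a block it was called higher, as were 25 members in all (46.3%), with 16.7% of all genes higher and 15.5% lower. UCHL1 was nearly absent from JJN3, at 0.276, 0 and 0.167 CPM with CX+Pano and 0 counts with CX.

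**Figure D4:**
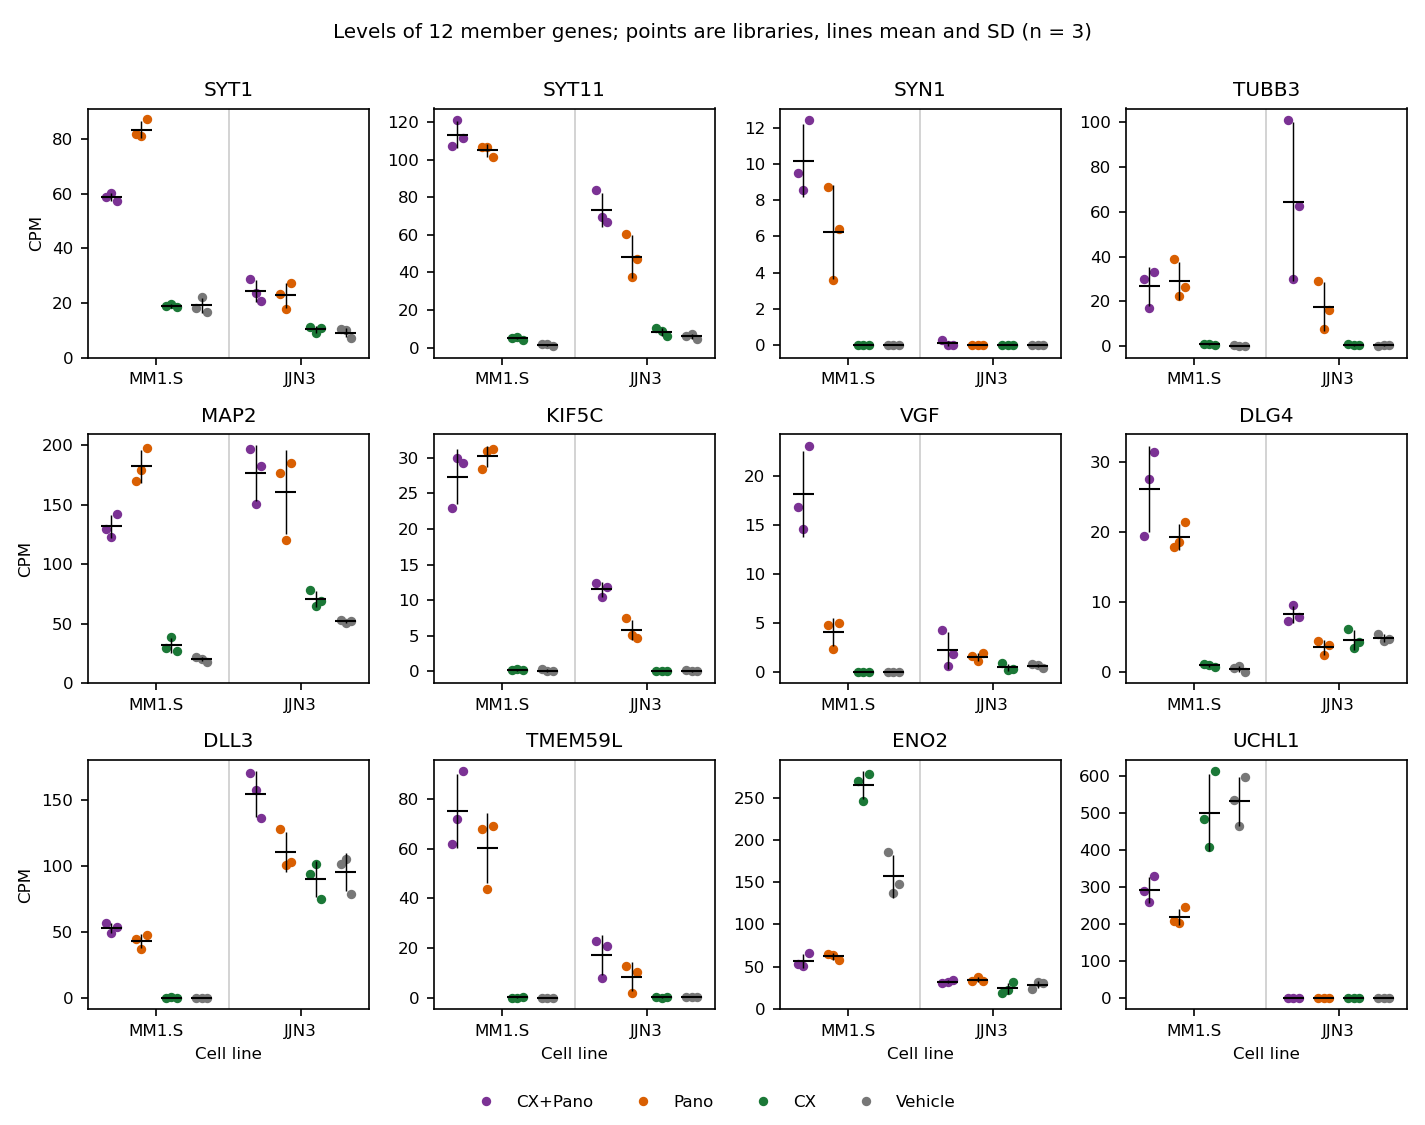
CPM of 12 members in each library (points) with the mean and SD (lines, n = 3), by line and group. SYT11, TUBB3, KIF5C and TMEM59L are near 0 without panobinostat in MM1.S and high with it, DLL3 is already expressed in JJN3 without it, and ENO2 and UCHL1 in MM1.S are lower with it.

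The lines were compared in how they responded to panobinostat added to CX-5461, tested as the JJN3 log2 fold minus the MM1.S log2 fold over 24 libraries: 3 of the 54 members (5.56%) had the larger value in JJN3 and 6 (11.1%) the larger value in MM1.S, where 10.4% of all genes were called higher and 7.30% lower. Both directions together, the members were called about as often as all genes, so the count is no result about them. DLL3 differed by -8.01 ± 0.45 (edgeR, adjusted p = 3.83e-22), being off with CX in MM1.S and on in JJN3. VGF (-7.37 ± 1.63, adjusted p = 0.000589), NLGN2 (-5.08 ± 1.04, adjusted p = 0.000123) and DLG4 (-3.98 ± 0.45, adjusted p = 1.13e-10) were also low with CX in MM1.S. With CX in JJN3 the means were 0.4646 CPM for VGF, 0.8281 CPM for NLGN2 and 4.605 CPM for DLG4, so VGF and NLGN2 were low there too. The fitted differences of VGF, NLGN2 and DLL3 rest on 0, 1 and 2 counts in the MM1.S CX group, depend on the small prior count of the fit, and show a direction and not a size. SYT11 (-1.40 ± 0.28, adjusted p = 8.52e-05) and MAP2 (-0.75 ± 0.20, adjusted p = 0.00361) rose in both lines, with the larger log2 fold in MM1.S. The MAP2 call ended without replicate 1 (adjusted p = 0.115) or replicate 3 (0.117).

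Larger values in JJN3 were found for HPCAL4 (3.47 ± 0.70, adjusted p = 0.000502), ENO2 (2.59 ± 0.21, adjusted p = 1.12e-15) and STMN3 (2.14 ± 0.58, adjusted p = 0.00448). HPCAL4 had CX levels of 0.351, 0.382 and 0.326 CPM in JJN3 and 10.3, 7.70 and 11.5 CPM in MM1.S. ENO2 fell in MM1.S alone among the calls. For STMN3 the call ended without MM1.S CX replicate 1 (adjusted p = 0.0577) or without replicate 1 of every group (0.28), and for HPCAL4 without replicate 3 of every group (0.0914). TUBB3, KIF5C, GPC2 and TMEM59L rose in both lines, and the difference between the lines was not called for them.

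Whether CX-5461 added to panobinostat moved the members was asked with CX+Pano against Pano, which shares its Pano libraries with the contrast used for the choice. In MM1.S 2 members rose and 2 fell (3.7% each), with 1.53% and 1.12% of all genes higher and lower. VGF was at 16.8, 14.6 and 23.1 CPM with CX+Pano and 4.77, 2.39 and 4.95 CPM with Pano (log2 fold change 2.17 ± 0.24, adjusted p = 1.66e-08), with the groups well apart. NRXN2 was at 5.78, 5.82 and 6.49 CPM with CX+Pano and 2.78, 1.03 and 2.75 CPM with Pano (log2 fold change 1.48 ± 0.33, adjusted p = 0.00338); without Pano replicate 2 its adjusted p was 0.094. SYT1 was lower, at 58.7, 60.2 and 57.3 CPM with CX+Pano and 81.9, 81.2 and 87.1 CPM with Pano (log2 fold change -0.51 ± 0.12, adjusted p = 0.00557), and without Pano replicate 3 its adjusted p was 0.056. MAP2 was lower too, at 129.6, 123 and 143 CPM with CX+Pano and 170.5, 179 and 198 CPM with Pano (log2 fold change -0.47 ± 0.11, adjusted p = 0.00705). That call ended without Pano replicate 3 (adjusted p = 0.101), CX+Pano replicate 1 (0.0599) or CX+Pano replicate 2 (0.0513). Without Pano replicate 3, 2 members were called in place of 4, and DESeq2 called 0 members higher.

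In JJN3 3 members rose and 0 fell in the same comparison (5.56%), with 0.374% of all genes higher and 0.699% lower. MAP1A was at 5.52, 3.92 and 3.999 CPM with CX+Pano and 1.16, 0.860 and 1.14 CPM with Pano (log2 fold change 2.07 ± 0.45, adjusted p = 0.0107). DLG4 was at 7.32, 9.60 and 7.83 CPM with CX+Pano and 4.46, 2.37 and 3.804 CPM with Pano (log2 fold change 1.17 ± 0.29, adjusted p = 0.0343), and GPC2 at 4.69, 2.15 and 3.999 CPM with CX+Pano and 0.660, 0.860 and 1.71 CPM with Pano (log2 fold change 1.78 ± 0.47, adjusted p = 0.0434). The 2 groups did not overlap for any of the 3. With the replicate number as a block, 13 members rose and 0 fell (24.1%), with 3.10% of all genes higher and 3.69% lower: SYT11, STMN2, TUBB3, TUBB2B, MAP1A, KIF1A, KIF5C, DLG4, GPC2, DLL3, APLP1, HPCAL4 and TMEM59L. TUBB3 then had a log2 fold change of 1.88 ± 0.13 (adjusted p = 6.91e-13), from 101, 29.97 and 62.7 CPM with CX+Pano and 29.2, 7.53 and 16.2 CPM with Pano. Each of the 13 was higher with CX+Pano in 3 of 3 pairs, counting replicate 2 of STMN2 and KIF1A, where Pano had 0 counts. The block fit called these members on the same pairs, so the pair counts describe the calls and add no support. The groups were apart for SYT11, TUBB3, MAP1A, KIF5C, DLG4, GPC2 and DLL3 and overlapped for the others. The calls without the block depended on single libraries: 0 members were called without Pano replicate 2 or without CX+Pano replicate 1, 1 without CX+Pano replicate 3, 5 without CX+Pano replicate 2 and 6 without Pano replicate 1, while limma-voom called 0. Of the 39 members tested, 12 had an unadjusted p under 0.05 in the edgeR fit without the block, as had 10.9% of all genes.

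**Figure D5:**
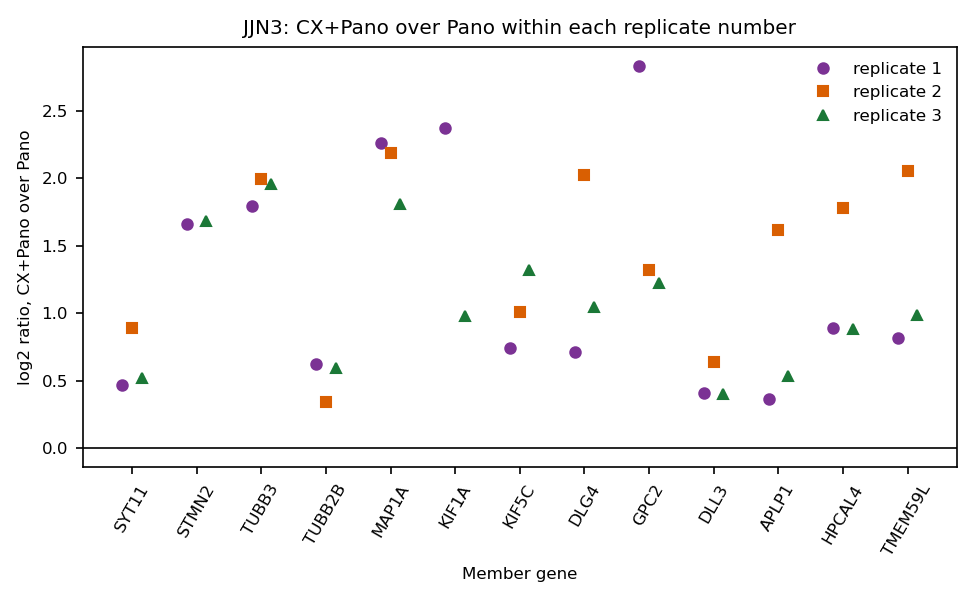
Log2 ratio of CX+Pano over Pano within each replicate number in JJN3, for the 13 members called with the replicate number as a block (y axis, log2; members on the x axis). All ratios drawn lie above 0, for members that were picked by the fit on these same pairs. Replicate 2 of STMN2 and KIF1A is not drawn because Pano had 0 counts there.

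CX-5461 alone, against the Vehicle libraries that the choice of members also used, moved 3 members in MM1.S and 0 in JJN3. In MM1.S 3 of 54 rose and 0 fell (5.56%), with 5.65% of all genes higher and 4.09% lower, a share near that of all genes. SYT11 was at 5.06, 5.52 and 4.27 CPM with CX and 1.79, 1.79 and 0.675 CPM with Vehicle (log2 fold change 1.83 ± 0.32, adjusted p = 2.09e-05), ENO2 at 269.8, 246 and 278 CPM with CX and 186, 138 and 147 CPM with Vehicle (log2 fold change 0.75 ± 0.11, adjusted p = 3.52e-07), and MAP2 at 29.6, 38.8 and 27.4 CPM with CX and 22.01, 20.8 and 18.2 CPM with Vehicle (log2 fold change 0.65 ± 0.14, adjusted p = 0.0007). The CX libraries lay above the Vehicle libraries for each, and without replicate 2 of every group the adjusted p of MAP2 was 0.0675. ENO2 thus rose with CX-5461 alone and fell where panobinostat was added to it.

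In JJN3 edgeR called 0 members with CX against Vehicle, where 0.00534% of all genes were higher and 0.0214% lower. Its unadjusted p was under 0.05 for 1 of the 39 members tested and for 4.12% of all genes. DESeq2 and limma-voom called 0 members. With the replicate number as a block MAP2 alone was called, at 78.5, 64.97 and 68.99 CPM with CX and 53.3, 50.6 and 52.3 CPM with Vehicle (log2 fold change 0.44 ± 0.11, adjusted p = 0.043), with 0.310% of all genes higher and 0.395% lower. The difference between the lines in this contrast was called for ENO2 alone, JJN3 minus MM1.S of -1.02 ± 0.21 (adjusted p = 0.00258), with 0.147% of all genes higher and 0.636% lower. Without replicate 2 its adjusted p was 0.0963 and without replicate 3 it was 0.0549.

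Other genes of the same biology were counted in CX+Pano against CX, where 24.8% of all genes rose and 22.4% fell in MM1.S and 12.8% rose and 10.2% fell in JJN3. REST itself was at 39.22 ± 8.07 CPM with CX+Pano and 58.27 ± 7.94 CPM with CX in JJN3 (SD, n = 3; log2 fold change -0.58 ± 0.16, adjusted p = 0.0079), and was not called in MM1.S (-0.14 ± 0.13, adjusted p = 0.392). The difference between the lines was not called (adjusted p = 0.138). Of 26 genes for REST and its corepressors 7 rose and 10 fell in MM1.S (26.9% and 38.5%) and 1 rose and 4 fell in JJN3 (3.85% and 15.4%). The deacetylase HDAC1 (0.50 ± 0.10, adjusted p = 3.39e-05) rose and the histone-binding protein RBBP7 (-0.44 ± 0.10, adjusted p = 0.000217) fell in MM1.S, and the corepressor subunit ZMYM3 (-0.88 ± 0.15, adjusted p = 2.55e-05) and the histone-binding protein RBBP4 (-0.62 ± 0.20, adjusted p = 0.0196) fell in JJN3. The summed level of this list ranged from 1555 to 1558 CPM with CX+Pano and 1505 to 1545 CPM with CX in MM1.S, and from 1619 to 1783 CPM with CX+Pano and 1764 to 1873 CPM with CX in JJN3. Whether a change in REST bears on the members was not tested.

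Of 28 neuronal transcription factors 6 rose and 0 fell in each line (21.4%), with 19 of the 28 tested in MM1.S and 18 in JJN3. SOX2 (0.98 ± 0.12, adjusted p = 4.8e-11) and POU4F1 (2.23 ± 0.20, adjusted p = 1.09e-15) rose in MM1.S, ONECUT2 (1.25 ± 0.19, adjusted p = 5.44e-06) and ISL1 (1.56 ± 0.22, adjusted p = 9.47e-07) in JJN3. Of 17 neuronal RNA processing genes 8 rose and 2 fell in MM1.S (47.1% and 11.8%), and 8 rose and 1 fell in JJN3 (47.1% and 5.88%). PTBP1, a splicing repressor of neuronal exons, was lower in both lines, at 150.8 ± 10.6 CPM with CX+Pano and 480.0 ± 40.0 CPM with CX in MM1.S and at 229.9 ± 16.1 CPM with CX+Pano and 374.2 ± 50.6 CPM with CX in JJN3 (SD, n = 3; log2 fold changes -1.67 ± 0.10 and -0.70 ± 0.13, adjusted p = 8.59e-23 and 8.95e-05). Of 30 neuronal channels and receptors 7 rose in MM1.S (23.3%) and 4 in JJN3 (13.3%), and 0 fell; the shares that rose are near those of all genes. SCN3A, a sodium channel, rose in both (1.76 ± 0.20, adjusted p = 1.44e-07 in MM1.S and 1.33 ± 0.36, adjusted p = 0.0271 in JJN3). The sodium channel subunit SCN3B (2.65 ± 0.41, adjusted p = 6.04e-08) rose in MM1.S and the calcium channel CACNA1A (4.19 ± 0.62, adjusted p = 2.2e-06) in JJN3. Of the RNA-binding KHDRBS family, KHDRBS3 (-0.42 ± 0.17, adjusted p = 0.0304) fell in MM1.S and KHDRBS2 (1.90 ± 0.29, adjusted p = 1.07e-05) rose in JJN3. KHDRBS2 was higher in MM1.S too, at 8.018, 6.793 and 8.109 CPM with CX+Pano and 1.74, 3.194 and 2.844 CPM with CX. In JJN3 KHDRBS3 was at 48.73, 48.19 and 45.16 CPM with CX+Pano and 45.41, 37.07 and 39.63 CPM with CX, which overlapped.

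Markers of other cell types were counted in the same comparison, beside the same shares of all genes. Their shares are again over all genes listed. Tested in MM1.S and JJN3 were 14 and 12 of the muscle genes and 11 and 7 of the liver genes. The same held for 11 and 8 of the glial genes, 9 and 6 of the keratinocyte genes and all 12 plasma cell genes. Of 19 muscle genes 6 rose and 1 fell in MM1.S (31.6% and 5.26%) and 2 rose and 1 fell in JJN3 (10.5% and 5.26%); TNNT1, a troponin, rose in both (21.32 CPM with CX+Pano and 0.1011 CPM with CX in MM1.S, adjusted p = 4.58e-25; 10.43 CPM with CX+Pano and 0.519 CPM with CX in JJN3, adjusted p = 2.44e-09). TTN, titin, rose in MM1.S and fell in JJN3. The summed muscle level ranged from 48.11 to 64.69 CPM with CX+Pano and 7.591 to 12.63 CPM with CX in MM1.S, and from 36.58 to 39.57 CPM with CX+Pano and 36.64 to 44.04 CPM with CX in JJN3. The muscle factor MYOD1 had 0 counts in all these groups. Of 16 liver genes 4 rose in MM1.S (25%) and 0 in JJN3, and 0 fell; CPS1 (1.89 ± 0.26, adjusted p = 2.44e-09) and AHSG (1.009 CPM with CX+Pano and 0.0474 CPM with CX, adjusted p = 0.00155) were among them, and the sum ranged from 13.05 to 14.42 CPM with CX+Pano and 2.614 to 3.84 CPM with CX in MM1.S, and from 2.0 to 3.865 CPM with CX+Pano and 0.9554 to 1.468 CPM with CX in JJN3. Of 14 glial genes 3 rose and 3 fell in MM1.S (21.4% each) and 2 rose and 2 fell in JJN3 (14.3% each), with MBP lower in both (-1.05 ± 0.17, adjusted p = 1.59e-05, and -0.43 ± 0.15, adjusted p = 0.0275) and MOG and SOX10 at 0 counts in these groups. OLIG1 (-0.50 ± 0.18, adjusted p = 0.0423) fell in JJN3. The glial sum ranged from 35.32 to 54.02 CPM with CX+Pano and 69.12 to 84.45 CPM with CX in MM1.S, and from 236.4 to 306.6 CPM with CX+Pano and 326.2 to 407.6 CPM with CX in JJN3. Of 15 keratinocyte genes 1 rose and 2 fell in MM1.S (6.67% and 13.3%), and 1 rose and 0 fell in JJN3 (6.67%); KRT10 (-0.54 ± 0.10, adjusted p = 5.96e-06) and SFN (-1.15 ± 0.18, adjusted p = 8.51e-07) fell in MM1.S and TP63 (0.98 ± 0.31, adjusted p = 0.0178) rose in JJN3. KRT5 had 0 counts in these groups, and the sum ranged from 189.0 to 197.5 CPM with CX+Pano and 284.0 to 291.9 CPM with CX in MM1.S, and from 68.49 to 78.68 CPM with CX+Pano and 62.06 to 72.61 CPM with CX in JJN3. Of 12 plasma cell genes 0 rose and 11 fell in MM1.S (91.7%), and 1 rose and 7 fell in JJN3 (8.33% and 58.3%). XBP1, the factor of the secretory programme, was at 133.4 ± 5.92 CPM with CX+Pano and 1871 ± 64.8 CPM with CX in MM1.S and at 282.1 ± 11.6 CPM with CX+Pano and 754.1 ± 7.76 CPM with CX in JJN3 (SD, n = 3). JCHAIN (-1.79 ± 0.10, adjusted p = 3.02e-23) fell in MM1.S and POU2AF1 (-1.23 ± 0.14, adjusted p = 1.65e-08) in JJN3. The plasma cell sum ranged from 981.7 to 1106 CPM with CX+Pano and 7474 to 8122 CPM with CX in MM1.S, and from 2441 to 3152 CPM with CX+Pano and 3928 to 5259 CPM with CX in JJN3. The part of these shifts in the members' values was not tested.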

How the data were processed

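RNA was read by 3′ RNA sequencing of polyadenylated RNA in 24 libraries, and the deposited values are raw counts of reads per gene identifier. The submitters' processing notes name HISAT2 2.2.1 and featureCounts 2.0.1, with limma 3.50.0, and list hg19 and GRCh37 as builds. Which annotation and which strand option were used, and how reads with several matches were counted, is not stated in them. Groups were taken from the titles, since the treatment entries of the JJN3 CX libraries number the drug differently from the titles. Of 28395 identifiers 27745 have a symbol.

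The members and the lists were chosen with earlier results of these data known. Counts were tested with edgeR 4.0.16 in R 4.3.3 (quasi-likelihood F test, TMM scaling, robust, every gene with at least 1 count, Benjamini-Hochberg adjustment over all genes tested, called at an adjusted p under 0.05). Each line was fitted on 12 libraries with 4 group means, over 19937 genes in MM1.S and 18732 in JJN3, and the difference between the lines on 24 libraries with 8 group means, over 21062 genes. The setting legacy=FALSE was chosen after seeing the data, with the calls of both settings known. Errors beside log2 fold changes are standard errors. CPM are counts divided by the library total after TMM scaling within a line. Where a group had 0 counts over its libraries, the fold is a lower bound against 3 counts, and where it had 1 to 3 the ratio carries a 95% counting interval. Intervals and limits cover counting error alone, since reads without molecular identifiers are not independent molecules. The 24 pairs of replicates had a chi-square per degree of freedom of 4.09 to 14.3, beyond sampling noise.

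Replicate numbers are given in the labels. In JJN3 the deviations of same-numbered libraries correlated by 0.226 to 0.485 in all pairs, so the numbers were taken as pairs and the fit with the replicate number as a block was run beside the fit without it. Unless the block is named, the tests in JJN3 and between the lines ignore this pairing, also where libraries were left out. In MM1.S the numbers were not taken as pairs, with a lowest correlation of 0.0614.

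Values and tests are given per comparison for the called members, up to 25 by highest mean CPM in the line and those that moved against the rest, and per library in all groups for the 2 members of highest mean CPM in each role. Of the other lists REST and the 2 called genes of highest mean CPM in the line are named, except 1 that is not reported here. Members outside this rule, such as MAP1B, STMN4 and SCG2, were picked after their values were seen. Alternatives were DESeq2 1.42.0, limma-voom (limma 3.58.1), a filter on low counts, library size scaling, the replicate block, fits of only the groups compared and leaving out libraries. Tests were tried on simulated data first. Promoter windows came from RefSeq on GRCh38.p14, and neighbours at 3′ ends from GENCODE v29. Figures were drawn with matplotlib 3.10.9.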

Additional observations from a re-analysis of the deposited data

Results flagged for a closer look

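For 9 members the effect of adding panobinostat to CX-5461 differed between the lines in the test of the difference itself, given as the JJN3 log2 fold minus the MM1.S log2 fold. This is 5.56% of members higher and 11.1% lower, beside 10.4% and 7.30% of all genes. The fold was larger in MM1.S for DLL3 (-8.013), VGF (-7.373), NLGN2 (-5.075), DLG4 (-3.978), SYT11 (-1.400) and MAP2 (-0.7464). The fold was larger in JJN3 for HPCAL4 (3.472), ENO2 (2.585) and STMN3 (2.139). The values of DLL3, VGF and NLGN2 rest on at most 2 counts in the MM1.S CX group and are directions, not sizes. For CX against Vehicle the same test singled out ENO2 (-1.015), which was higher with CX than with Vehicle in MM1.S and not called in JJN3.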

How the results depend on the processing

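For CX+Pano against CX the count of members called stayed within 1.5 times the reported one under every alternative run, with 29 to 35 called in MM1.S and 17 to 24 in JJN3 when libraries were left out, and no named member reversed. The other comparisons rest on few calls. For CX+Pano against Pano in MM1.S, DESeq2 called 0 members higher, and leaving out libraries gave 1 to 5 called, 1 to 3 higher and 0 to 3 lower. In JJN3 the same comparison gave 6 called (6 higher) with library size alone, 0 (0 higher) with limma-voom, 8 (8 higher) with edgeR's default deviances, 0 (0 higher) with those after filtering low counts, and 0 to 6 called and higher with libraries left out; with the replicate block it gave 13 called, 13 higher. For CX against Vehicle, MM1.S gave 5 called and 1 lower both with the default deviances and with only the 2 groups fitted, and JJN3 gave 1 called, 1 higher, with the replicate block. For the difference between the lines, limma-voom called 21 members, 17 lower, in CX+Pano against CX, and in CX against Vehicle the default deviances called 2, both (2) lower, and leaving out libraries gave 0 to 1 called and lower. The cause of these shifts was not tested. The settings with default deviances were chosen after seeing the data.

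In MM1.S, whose replicate numbers were not taken as pairs, the block gave 34 calls for CX+Pano against CX, 5 against Pano and 3 for CX against Vehicle, and every sample correlated best with its own number except replicate 3 of CX+Pano against Pano. The block left the differences between the lines at 9 and 1 calls, and in JJN3 it gave 25 for CX+Pano against CX. Scaled by library size alone the members summed to 928.2 CPM with Vehicle in MM1.S. Without TUBB2B the sums in MM1.S were 1113 CPM with CX+Pano, 1059 CPM with Pano, 845.1 CPM with CX and 750.6 CPM with Vehicle, and without MAP2 those in JJN3 were 478.9 CPM with Pano, 224.5 CPM with CX and 226.1 CPM with Vehicle. Counting as silent only members with 0 counts in every library left 6 in MM1.S. Depth limits members with few counts, where single libraries decide the call.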
